A study of Mus musculus with 4 samples.

Results

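A set of 31 genes of developing red blood cells was followed in RNA-seq libraries of Lin−LEPR+ bone marrow cells from mature and elderly mice. The members were taken by name from a list of erythroid regulators, receptors, heme synthesis genes, membrane proteins and late erythroid enzymes, and all 31 were found among the 37310 genes of the annotation. Their counts were summed over the transcripts of each gene, from exonic bases that belong to 1 transcript alone (a median of 64.3% of the longest transcript), and 29 of them had enough counts to be tested, among 22214 genes tested in all. The mature group held 2 libraries from wild type C57Bl/6 mice aged 3 months, and the elderly group 2 libraries from mice of the same strain aged 24 months, with no treatment named for either and male mice described by the study. RNA was pooled from several mice per group, and the labels number the libraries as separate mice, so p-values measure the spread between these libraries, which may not be that between animals. The labels name unsorted marrow, but the methods of the study describe cells sorted as positive for the leptin receptor (LEPR) and negative for Ter119, CD45 and CD31 (Lin−). Ter119 is an antigen of erythroid cells, so the described gate is meant to remove maturing erythroid cells.

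Red cells arise from progenitors that commit under the transcription factors Gata1, Tal1 and Klf1 and survive on erythropoietin. They then take up iron through the transferrin receptor, make heme in a pathway that begins and ends in the mitochondrion, and build a membrane skeleton of spectrin, ankyrin and adducin under the anion exchanger and the blood group proteins. Bone marrow is the site of this process in adult mice, where erythroblasts mature around macrophages, and LEPR+ stromal cells belong to the surrounding niche.

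The libraries held between 10472117 and 15650518 counts. The 10 genes listed for LEPR+ stromal cells summed to 30050 and 30655 CPM (counts relative to the size of the library, scaled by TMM factors) in the mature and to 18715 and 26482 CPM in the elderly libraries. The 31 erythroid genes summed to 782 and 517 CPM in the mature and to 2130 and 1970 CPM in the elderly libraries. The 8 genes of heme synthesis and mitochondrial iron import held 346 and 278 CPM of this in the mature libraries. In the elderly libraries they held 619 and 630 CPM. How much of the erythroid sums came from other cells, such as stromal cells, was not tested. The erythroid genes took 0.0758% and 0.0512% of all gene counts at the mature age, and 0.226% and 0.194% at the elderly age. The stromal sum exceeded the erythroid sum in every library. More cells of a type and more RNA per cell cannot be told apart in such bulk samples.

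Of the 29 genes tested, 12 were higher in elderly than in mature libraries (edgeR's quasi-likelihood test with a Benjamini-Hochberg adjusted p under 0.05, adjusted over the whole table), while 0 were lower. Over all genes tested, 1.94% were higher and 0.423% lower by the same rule. At an unadjusted p under 0.05, 22 of the 29 were higher and 0 lower, while 7.1% of all genes were higher and 3.83% lower. DESeq2 called 15 of the 29 higher and 0 lower, and 2.48% of all genes higher and 0.689% lower. For 26 of the 29 genes each elderly library exceeded each mature library, and for 1 gene each lay below, while 22% of all genes tested lay above in this way and 18.9% below. The median log2 fold change (elderly minus mature) was 1.33 over the 29 genes and -0.0059 over all genes tested. Without elderly library 1 or without elderly library 2, the quasi-likelihood test called 0 genes of the whole table. At an unadjusted p under 0.05, 15 of the erythroid genes (3.84% of all genes) were then higher without elderly library 1 and 16 (4.35%) without elderly library 2. DESeq2 called 8 of them (1.1% of all genes) without elderly library 1 and 10 (1.29%) without elderly library 2. The fitted changes remained above 0 for all 12 called genes in both cases. For example, the log2 fold change of Rhag was 2.38 and 2.85 and that of Car2 2.09 and 2.57. Without mature library 1 the quasi-likelihood test called 14 (2.13% of all genes), with Cpox and Tmcc2 no longer among them, and without mature library 2 it called 9 (1.44%), without Cpox, Slc25a37 and Bpgm.

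**Figure D1:**
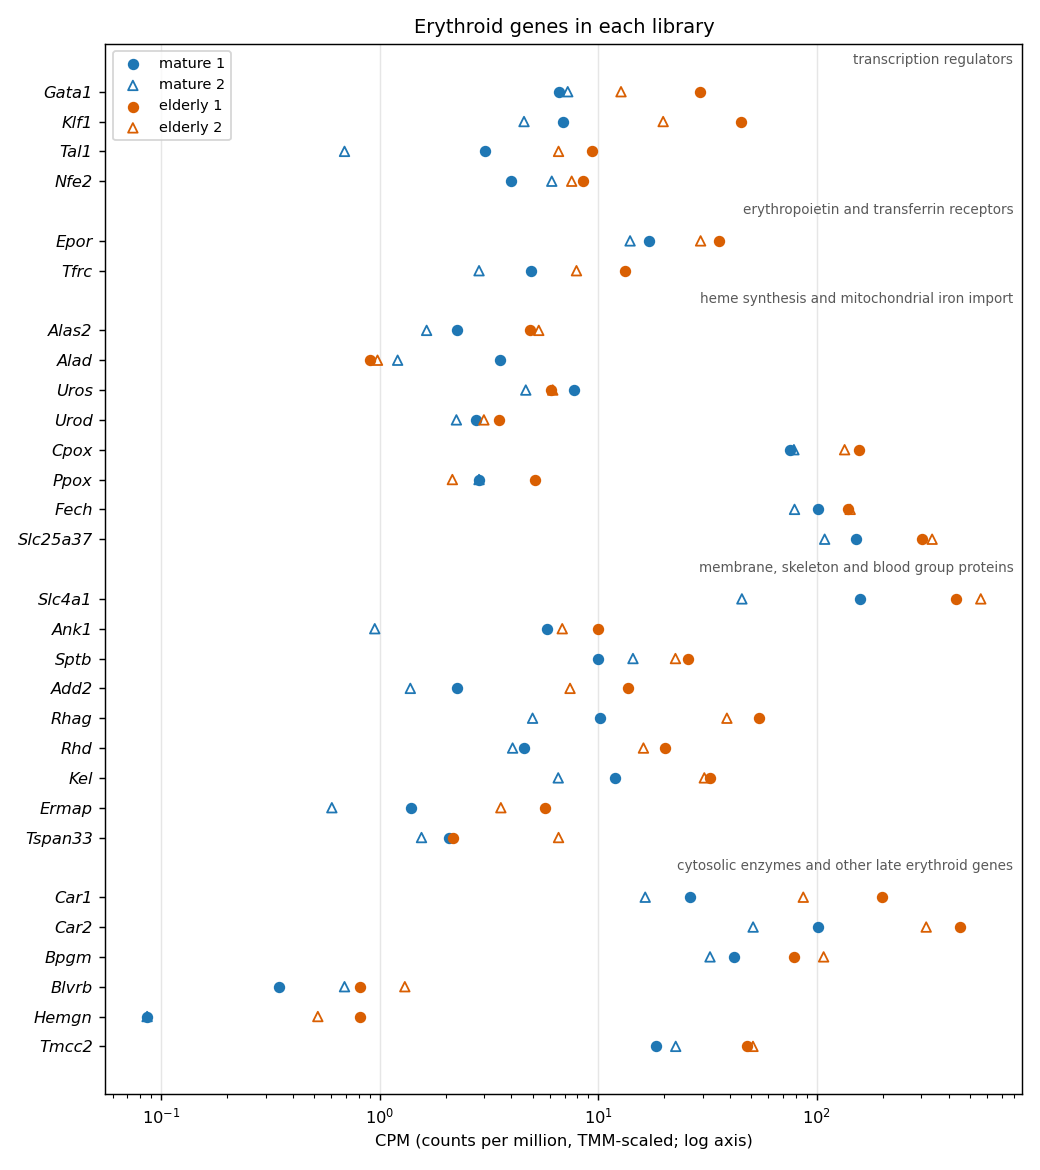
Level (CPM, log axis) of the 29 tested erythroid genes in each library, grouped by role (blue, mature; orange, elderly; filled circles, library 1; open triangles, library 2). The orange points lie to the right of the blue points for 26 genes, Alad has both to the left, and Uros and Ppox overlap.

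Promoter sequences are shown first, for the called genes with the largest changes among those with a RefSeq promoter. GATA factors and Klf1, themselves among the members, are known to bind short motifs near erythroid genes. RefSeq promoters (GRCm38.p6 table) were found for 24 of the 31 genes, with 31 starts. Car1, Car2, Slc4a1, Slc25a37, Fech, Ank1 and Nfe2 were not among them. The motifs AGATAA and TGATAA for GATA factors and CCNCNCCC for Krüppel-like factors were searched on both strands in the 250 bases before each start. A GATA motif was present before 14 of the 24 genes (58.3%) and before 18.8% of 27025 genes of the table, a gene being counted when any of its starts had it. The Krüppel-like motif was present before 16 of the 24 (66.7%) and 48.5% of all genes, and both motifs before 6 (25%) and 5.23%. Of the 8 genes that were higher in elderly libraries and are in the table, 6 had a GATA motif and 3 (37.5%) a Krüppel-like motif. Of the 16 members in the table without a call, 8 had a GATA motif and 13 (81.25%) a Krüppel-like motif. The difference between these groups was not tested. These matches are letters in a window, and no binding was measured here. The following stretches of 120 bases run 5′ to 3′ on the + strand up to the start of the gene, with motif matches in capitals. They were placed in NCBI37 (mm9), the build of the counts, by exact match.
Rhag (chr17:40947955-40948074, up to the annotated start): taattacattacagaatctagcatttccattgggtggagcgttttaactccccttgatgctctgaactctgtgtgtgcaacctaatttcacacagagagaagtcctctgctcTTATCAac
Klf1 (chr8:87425707-87425826, up to the annotated start): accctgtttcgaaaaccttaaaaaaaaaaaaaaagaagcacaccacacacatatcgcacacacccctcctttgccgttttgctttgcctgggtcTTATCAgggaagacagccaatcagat
Rhd (chr4:134420331-134420450, up to the annotated start): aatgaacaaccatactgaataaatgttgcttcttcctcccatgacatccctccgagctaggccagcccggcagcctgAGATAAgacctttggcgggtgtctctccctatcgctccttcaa
Add2 (chr6:85978555-85978674, up to the RefSeq start): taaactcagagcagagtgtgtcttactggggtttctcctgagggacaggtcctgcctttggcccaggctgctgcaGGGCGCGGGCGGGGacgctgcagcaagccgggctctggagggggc
The Rhag, Klf1 and Rhd stretches each held 1 GATA motif and no Krüppel-like motif. The Add2 stretch held 2 overlapping Krüppel-like motifs and no GATA motif, and it lies before a RefSeq start far upstream of the gene start of the annotation used for counting (chr6:86028078).

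Among the transcription regulators, Klf1 rose and the other 3 that were tested did not pass the test. Klf1 encodes the Krüppel-like factor that drives globin, membrane and heme genes, and lies at chr8:87425827-87429194 on the + strand. It was counted at 6.92 and 4.57 CPM in the mature and at 44.9 and 19.8 CPM in the elderly libraries. Both elderly values lay above both mature values, with a log2 fold change of 2.49 ± 0.39 (SE, adjusted p = 0.0065). The fold change was 1.81 without elderly library 1 and 2.97 without elderly library 2. Gata1, the zinc finger factor required for erythroid and megakaryocyte maturation, was counted at 6.58 and 7.24 CPM in the mature and at 29.1 and 12.7 CPM in the elderly libraries. Its groups did not overlap either, and its log2 fold change was 1.59 ± 0.38 with an adjusted p of 0.0502. DESeq2 gave Gata1 and Tal1 an adjusted p under 0.05. Tal1, the basic helix-loop-helix partner of Gata1, was counted at 3.03 and 0.690 CPM in the mature and at 9.38 and 6.57 CPM in the elderly libraries, a log2 fold change of 2.09 ± 0.54 (adjusted p = 0.078). Mature library 2 was low, and the fold change was 3.51 without mature library 1 and 1.36 without mature library 2. Nfe2, a subunit of a bZIP factor of globin gene control, was counted at 3.98 and 6.12 CPM in the mature and at 8.47 and 7.55 CPM in the elderly libraries (log2 fold change 0.66 ± 0.35, adjusted p = 0.55). Gfi1b, a repressor of erythroid and megakaryocyte cells, had 0 and 0 counts in mature libraries and 1 and 1 in elderly ones and was not tested. Only 112 of its exonic bases are shared with no other transcript, and reads on shared bases were not counted in these files.

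Both receptor genes had higher values in elderly libraries, and 0 of 2 passed edgeR's test as genes, while both had an unadjusted p under 0.05. Epor, the erythropoietin receptor, was counted at 17.0 and 13.96 CPM in the mature and at 35.7 and 29.4 CPM in the elderly libraries. The groups stood apart, with a log2 fold change of 1.07 ± 0.25 and an adjusted p of 0.0507. DESeq2 called Epor as higher. Tfrc, the transferrin receptor that brings iron into the cell, was counted at 4.93 and 2.84 CPM in the mature and at 13.3 and 7.94 CPM in the elderly libraries. Its log2 fold change was 1.44 ± 0.39 (adjusted p = 0.096), and again the groups did not overlap.

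The heme group was split. Of its 8 genes, 2 rose, and the other 6 ranged from a log2 fold change of -1.33 to 1.39 without passing the test, with a group median of 0.50. The genes that rose act in the mitochondrion, as do Alas2, Fech and Ppox, which did not pass the test. Slc25a37, or mitoferrin-1, carries iron into the mitochondrion and lies at chr14:69859908-69903160 on the - strand. It was counted at 150 and 108 CPM in the mature and at 303 and 336 CPM in the elderly libraries, a log2 fold change of 1.31 ± 0.21 (adjusted p = 0.0071). Cpox, coproporphyrinogen oxidase (chr16:58670321-58680504, + strand), was counted at 75.2 and 78.4 CPM in the mature and at 156 and 134 CPM in the elderly libraries. The libraries of each age were close together, and the log2 fold change was 0.92 ± 0.19 (adjusted p = 0.029). Fech, the ferrochelatase that inserts iron into protoporphyrin as the last step of the pathway, was counted at 101 and 79.0 CPM in the mature and at 138 and 142 CPM in the elderly libraries. Its groups did not overlap, and its log2 fold change of 0.64 ± 0.20 had an adjusted p of 0.17. Alas2, the erythroid enzyme of the first and rate-limiting step, was low in these files at 2.25 and 1.64 CPM in mature libraries and 4.87 and 5.34 CPM in elderly ones (log2 fold change 1.39 ± 0.42, adjusted p = 0.147).

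The steps of heme synthesis between Alas2 and Cpox gave no call. Alad, which joins the first precursors, was the member with both elderly libraries below both mature libraries, at 3.55 and 1.21 CPM in mature libraries and 0.901 and 0.976 CPM in elderly ones. Mature library 1 stood above the others, and the log2 fold change was -1.33 ± 0.65 (adjusted p = 0.50) with all libraries and -0.35 without mature library 1. Uros, the synthase that closes the porphyrin ring, was counted at 7.70 and 4.66 CPM in mature libraries and 6.04 and 6.18 CPM in elderly ones, so the elderly values lay between the mature ones. Urod, the decarboxylase that follows it, had a log2 fold change of 0.37 ± 0.44 (adjusted p = 0.85), and Ppox, the mitochondrial oxidase before Fech, one of 0.34 ± 0.49 (adjusted p = 0.89). All Ppox counts fell in retained-intron transcripts, as did 76.2% of the Urod, 50.8% of the Alas2 and 46.6% of the Uros counts. Only 16.25% of the Alad counts fell in protein-coding transcripts, and the rest fell in a transcript annotated as processed and not as protein-coding. The coding transcript of Ppox had no base of its own, and those of Alas2 had 129 bases at most.

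The membrane and blood group genes held 5 of the 12 calls. Of the 9 that were tested, 5 rose and the other 4 had log2 fold changes between 0.99 and 2.20 without passing the test. All 9 had both elderly libraries above both mature libraries, and the group median was 2.07. Rhag and Rhd encode related members of the Rh complex, in which Rhag is the ammonia channel that carries the Rh blood group protein. Rhag (chr17:40948075-40977703, + strand) was counted at 10.1 and 4.999 CPM in the mature and at 54.3 and 38.7 CPM in the elderly libraries, a log2 fold change of 2.62 ± 0.34 (adjusted p = 0.0024). It was 3.21 without mature library 1. Rhd (chr4:134420451-134452087, + strand) was counted at 4.59 and 4.05 CPM in the mature and at 20.2 and 16.1 CPM in the elderly libraries. The libraries of each age were close, and the log2 fold change was 2.07 ± 0.31 (adjusted p = 0.0046). Kel, the Kell blood group glycoprotein and an endopeptidase (chr6:41636329-41654338, - strand), was counted at 11.9 and 6.55 CPM in the mature and at 32.5 and 30.5 CPM in the elderly libraries (log2 fold change 1.78 ± 0.31, adjusted p = 0.011). Add2, beta-adducin, which caps actin at the spectrin junctions (chr6:86028078-86069549, + strand), was counted at 2.25 and 1.38 CPM in the mature and at 13.6 and 7.42 CPM in the elderly libraries. Its log2 fold change was 2.52 ± 0.43 (adjusted p = 0.011).

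Slc4a1, the band 3 anion exchanger (chr11:102210138-102227517, - strand), had the most counts of all members and also a wide spread between the mature libraries. It was counted at 158 and 45.3 CPM in the mature and at 431 and 562 CPM in the elderly libraries. Both elderly values exceeded both mature values, with a log2 fold change of 2.29 ± 0.42 (adjusted p = 0.016). The fold change was 3.46 without mature library 1 and 1.63 without mature library 2. DESeq2 (adjusted p = 0.103), the exact test at a dispersion of 0.2 (adjusted p = 0.071) and the robust fit (adjusted p = 0.59) did not call Slc4a1. Ank1, the ankyrin that ties band 3 to spectrin, spread in the same way at 5.80 and 0.948 CPM in mature libraries and 10.01 and 6.83 CPM in elderly ones (log2 fold change 1.31 ± 0.59, adjusted p = 0.43). Of its counts, 94.9% fell in retained-intron transcripts. Ermap, the Scianna blood group protein, was counted at 1.38 and 0.603 CPM in mature libraries and 5.68 and 3.58 CPM in elderly ones (log2 fold change 2.20 ± 0.54, adjusted p = 0.058). Tspan33, a tetraspanin of erythroid progenitors, was highest in elderly library 2, at 6.57 CPM against 2.16 CPM in elderly library 1 and 2.08 and 1.55 CPM in the mature libraries. Its fold change on the log2 scale was 1.28 ± 0.55 (adjusted p = 0.39) and fell to 0.26 without elderly library 2. Retained-intron transcripts held 99.4% of the Tspan33 counts and 71.6% of the Ermap counts. Icam4, the Landsteiner-Wiener blood group protein, had 0 counts in all libraries. All of its exonic bases are shared with other transcripts, so it could not be counted and its 0 is not a low level.

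Sptb, the beta chain of erythroid spectrin, was counted at 9.95 and 14.4 CPM in the mature and at 25.8 and 22.5 CPM in the elderly libraries, a log2 fold change of 0.99 ± 0.28 (adjusted p = 0.112). Its 2 main transcripts differed. The shorter transcript of 8084 bases (ENSMUST00000166101) had 71 and 27 counts in mature libraries and 198 and 272 counts in elderly ones, and rose by a log2 fold change of 2.13 ± 0.39 (adjusted p = 0.0029 over 42413 transcripts). The longer transcript of 10394 bases (ENSMUST00000021458) had 42 and 137 counts in mature libraries and 84 and 71 in elderly ones, and its log2 fold change was -0.31 ± 0.44 (adjusted p = 0.94). Mature library 2 was the highest for the longer and the lowest for the shorter transcript. The difference between the 2 transcripts was not tested. Of all transcripts tested, 1.44% were higher in elderly libraries at an adjusted p under 0.05.

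Tfrc was counted in 6 transcripts, of which 1 passed the test. The full-length coding transcript of 4890 bases (ENSMUST00000023486) had 10 and 1 counts in mature libraries and 60 and 63 counts in elderly ones, a log2 fold change of 3.35 ± 0.63 (adjusted p = 0.0040). These counts came from 135 bases of its own. The other 5 Tfrc transcripts with counts did not pass the test, with log2 fold changes from -0.33 to 2.92. The highest of these, the retained-intron transcript ENSMUST00000137901 (4 and 1 counts in mature libraries and 23 and 19 in elderly ones), was at 2.92 ± 0.83, and differences between Tfrc transcripts were not tested. In the fit over transcripts the main transcripts of Gata1 (adjusted p = 0.014), Tal1 (adjusted p = 0.026) and Epor (adjusted p = 0.042) passed, where their genes had missed the threshold. Epor has 1 transcript, with the same counts as its gene, and the main Gata1 transcript held nearly all counts of its gene, so for these genes the fit differed and not the counts.

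**Figure D2:**
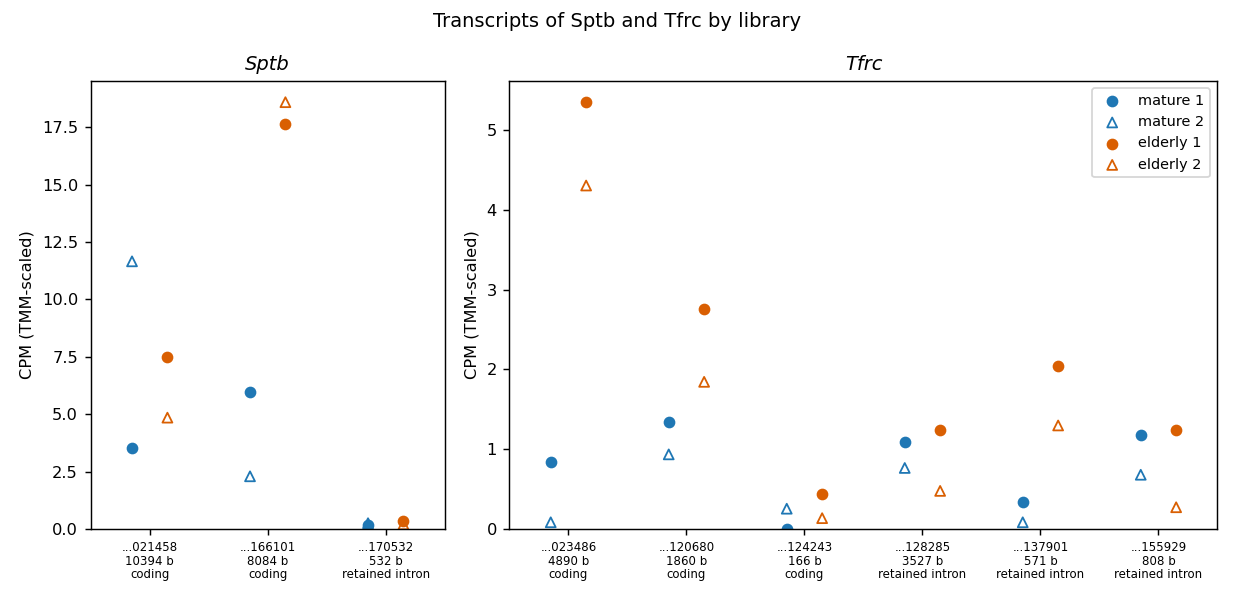
CPM of each counted transcript of Sptb (left) and Tfrc (right) in the 4 libraries, with the last digits of the transcript name, its length in bases and its type under each position (colors and markers as for the genes). The elderly points lie above the mature points for the Sptb transcript of 8084 bases and not for that of 10394 bases, and for Tfrc they also do so for the transcripts of 4890, 1860 and 571 bases.

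The carbonic anhydrases Car1 and Car2, which convert carbon dioxide and water to bicarbonate, were among the genes with the largest changes. Both lie on chromosome 3, at chr3:14766217-14778459 (- strand) and chr3:14886426-14900769 (+ strand), 107966 bases apart. Car1 was counted at 26.2 and 16.4 CPM in the mature and at 198 and 86.6 CPM in the elderly libraries. Elderly library 1 was the highest, and the log2 fold change of 2.74 ± 0.36 (adjusted p = 0.0026) was 2.05 without it and 3.22 without elderly library 2. Under the robust fit the adjusted p of Car1 was 0.17. Car2 was counted at 101 and 51.0 CPM in the mature and at 450 and 316 CPM in the elderly libraries, a log2 fold change of 2.34 ± 0.30 (adjusted p = 0.0024). Bpgm, the mutase that makes the 2,3-bisphosphoglycerate of red cells (chr6:34426207-34455613, + strand), was counted at 41.6 and 32.4 CPM in the mature and at 78.3 and 107 CPM in the elderly libraries (log2 fold change 1.33 ± 0.23, adjusted p = 0.012). Tmcc2, a transmembrane protein gene induced late in erythroid maturation (chr1:134252892-134287858, - strand), was counted at 18.4 and 22.6 CPM in the mature and at 48.0 and 51.0 CPM in the elderly libraries. Its log2 fold change was 1.27 ± 0.23 (adjusted p = 0.014), and 67.6% of its counts fell in retained-intron transcripts. Blvrb, a flavin and biliverdin reductase, stayed under 1.5 CPM in each library, with a log2 fold change of 1.03 ± 0.82 (adjusted p = 0.71). Hemgn, a nuclear protein of erythroid cells, had 1 and 1 counts in mature libraries and 9 and 8 in elderly ones, a pooled ratio of 7.44 with a 95% interval of 1.77 to 66.4 that covers counting error only (adjusted p = 0.49). In this group 4 of 6 genes rose, and the median log2 fold change was 1.83 with or without the 2 genes under a mean of 1 CPM.

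**Figure D3:**
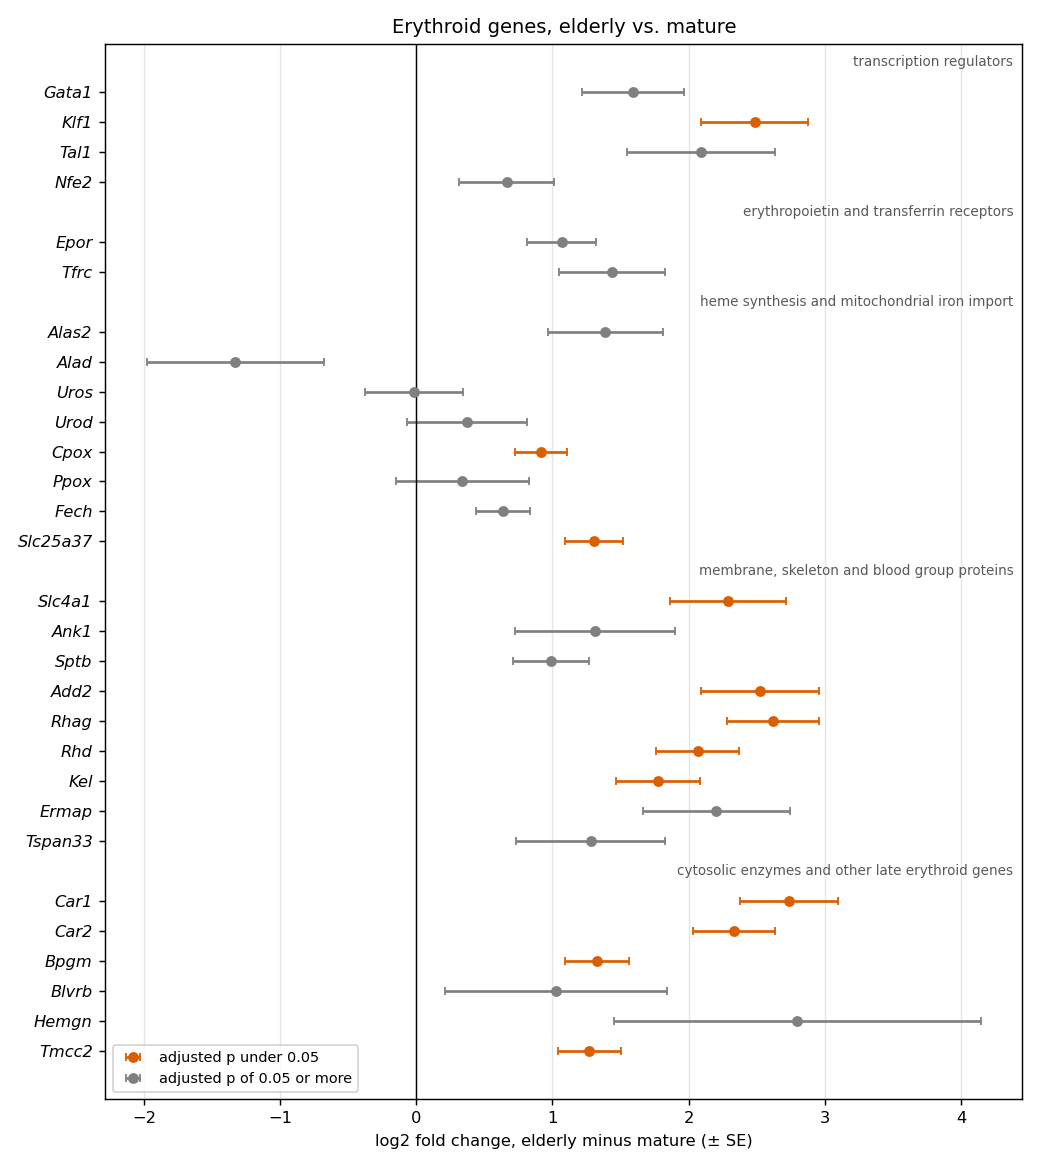
Log2 fold change (elderly minus mature) of the 29 tested erythroid genes with its standard error, grouped by role. Orange points passed an adjusted p under 0.05 and lie between 0.92 (Cpox) and 2.74 (Car1), and Alad at -1.33 is the point farthest to the left.

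Levels of different genes were compared per kilobase of exon that could be counted. In the mature libraries Fech led at a mean of 54.3 CPM per kb, followed by Car2 at 42.4, Slc25a37 at 31.1, Car1 at 24.6, Slc4a1 at 24.3 and Cpox at 24.1 CPM per kb. The mature libraries spread from 47.6 to 61.1 for Fech and from 28.5 to 56.2 CPM per kb for Car2, so these neighbours overlapped, and so did the 4 that follow. In the elderly libraries Car2 led at 214 CPM per kb, followed by Car1 at 164, Slc4a1 at 119, Fech at 84.5, Slc25a37 at 76.8 and Cpox at 45.5 CPM per kb. Car2 (177 to 251) overlapped with Car1 (100.1 to 228), and Car1 with Slc4a1 (103 to 134). Fech (83.4 to 85.5) lay below both Slc4a1 values. The regulators Klf1 and Tal1 reached 21.1 and 10.8 CPM per kb in the elderly libraries.

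**Figure D4:**
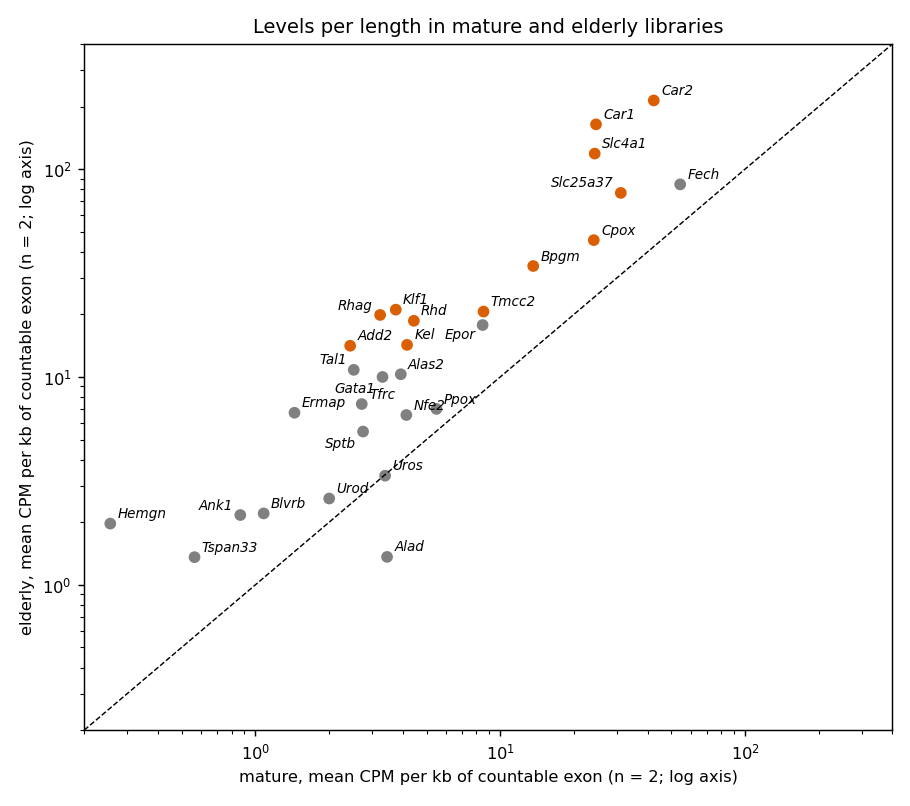
Mean CPM per kilobase of countable exon in mature (horizontal, log axis) and elderly libraries (vertical, log axis), 1 point per gene, orange where the adjusted p was under 0.05. The dashed line marks equal levels, and Car2, Car1 and Slc4a1 lie highest in the elderly libraries at 214, 164 and 119 CPM per kb.

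Libraries of the same age also differed. Over the 27 genes with a mean of at least 1 CPM, mature library 1 exceeded mature library 2 for 22, with a median ratio of 1.39 and a range from 0.650 (Nfe2) to 6.11 (Ank1). Elderly library 1 exceeded elderly library 2 for 18 of them, with a median ratio of 1.17 and a range from 0.329 (Tspan33) to 2.39 (Ppox). The matching shares over all genes are not given here. Klf1, Gata1 and Car1 were over 2 times as high in elderly library 1 as in elderly library 2. Slc4a1, Bpgm and Tspan33 were among the genes that were lower in elderly library 1.

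Other erythroid genes were examined as lists. Of 12 other erythroid membrane genes, 5 rose and 0 fell, with a list median of 1.21. Spna1, the alpha chain of erythroid spectrin, rose by 2.42 ± 0.23 (adjusted p = 0.00041), and the water channel Aqp1 by 2.41 ± 0.27 (adjusted p = 0.0011). Cldn13 (2.74 ± 0.44), Stom (1.68 ± 0.21) and Xk (1.30 ± 0.30) rose as well. Of 11 other regulators, 1 rose (3 by DESeq2), the Gata1 cofactor Zfpm1 (1.86 ± 0.25, adjusted p = 0.0026), while Foxo3, the most abundant of them, had a log2 fold change of 0.21 ± 0.18 (adjusted p = 0.75). Of 21 other heme and iron genes, 1 rose, the mitochondrial transporter Abcb10 (0.88 ± 0.19, adjusted p = 0.031). The most abundant of that list, the ferritin chain Fth1 and the iron regulator Ireb2, had log2 fold changes of -0.22 ± 0.18 and -0.06 ± 0.18 (adjusted p = 0.72 and 0.95). Of 11 late maturation genes tested, Trim10 (1.93 ± 0.28) and Trim58 (2.06 ± 0.38) rose, and Dcaf12, the most abundant, had a log2 fold change of 0.27 ± 0.19 (adjusted p = 0.69). By edgeR's test and by DESeq2, 0 genes of these 4 lists fell, and at an unadjusted p under 0.05 1 heme and iron gene and 1 regulator were lower.

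The globin genes differed widely in their counts. Hbb-b2, an adult beta globin, had 1211 and 587 counts in mature libraries and 2303 and 2875 in elderly ones, and rose by 1.34 ± 0.29 on the log2 scale (adjusted p = 0.031). Its mean level of 110.5 CPM per kb in mature and 281 CPM per kb in elderly libraries lay above that of each erythroid member given per length. Hbb-b1 had 1 and 0 counts in mature libraries and 10 and 19 in elderly ones. The alpha globins Hba-a1 and Hba-a2 had at most 1 count in any library. The adult globin genes exist as near-identical copies, so reads that fit several copies may be missing from these values.

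Some markers of other marrow cells rose with the erythroid genes. Neutrophil markers summed to 2117 and 1212 CPM in mature libraries and 4505 and 4394 CPM in elderly ones, and 5 of 9 rose (Elane, Ltf, Ngp, S100a8 and Mmp8). Markers of dividing cells summed to 384 and 179 CPM in mature libraries and 1000 and 706 CPM in elderly ones, and 4 of 9 rose, among them Mcm2 at a log2 fold change of 1.43 ± 0.28 (adjusted p = 0.020), while DESeq2 called 3 of the 9. Pcna, another replication gene of that list, had both elderly libraries below both mature libraries, at 25.9 and 23.5 CPM in mature libraries and 20.6 and 17.7 CPM in elderly ones (log2 fold change -0.37 ± 0.25, adjusted p = 0.67). Of 8 macrophage markers 4 rose (C1qa, C1qb, C1qc and Mrc1), each highest in elderly library 2, and DESeq2 called 3 of them, without C1qa. Other macrophage markers did not pass the test, among them Cd68 (log2 fold change -0.62 ± 0.32, adjusted p = 0.53, both elderly libraries below both mature libraries), Vcam1 (-0.37 ± 0.24, adjusted p = 0.65), which stromal cells also express, and Csf1r (-0.0037 ± 0.59, adjusted p = 0.998). Pcna, Cd68, Vcam1 and Csf1r are named after their values were seen. Cd163 had 0 counts in every library, with 83 countable bases. Of the megakaryocyte markers, which share Gata1, Tal1, Nfe2 and Gfi1b with erythroid cells, 0 of 9 passed edgeR's test, an unadjusted p under 0.05 or DESeq2, and they summed to 29.1 and 266 CPM in mature libraries and 124 and 201 CPM in elderly ones. Eosinophil markers, with 0 of 3 passing by any of these rules, summed to 317 and 25.3 CPM in the mature and to 142 and 137 CPM in the elderly libraries. Of the 4 mast cell and basophil, 7 B-lineage, 4 T cell and 4 endothelial markers tested, 0 passed edgeR's test, while 3, 4, 2 and 1 were higher at an unadjusted p under 0.05 and DESeq2 called 1 T cell marker (Cd3e) and 1 endothelial marker (Cdh5). The 10 stromal markers had a median log2 fold change of -0.33, with 0 passing edgeR's test or DESeq2 and 3 lower at an unadjusted p under 0.05. Ptprc, which encodes CD45, had 4 and 1 counts in mature libraries and 12 and 8 in elderly ones, from 2.61% of its longest transcript. The part of these cells in the erythroid values was not tested.

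**Figure D5:**
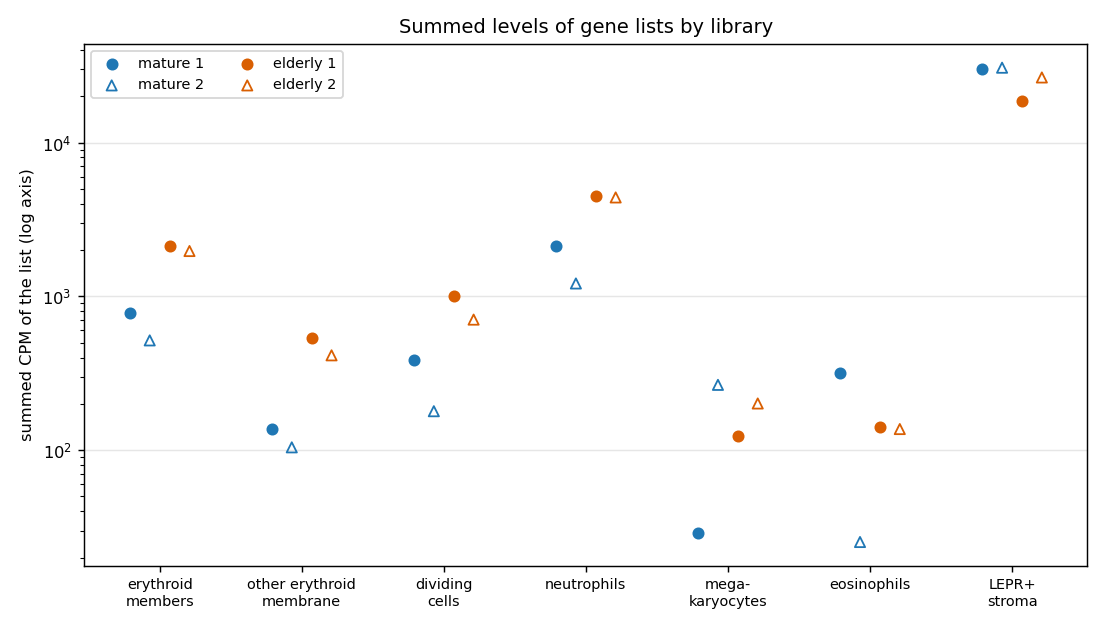
Summed CPM of the erythroid genes and of marker lists in each library (log axis; blue, mature; orange, elderly; filled circles, library 1; open triangles, library 2). The erythroid, dividing cell and neutrophil sums are higher in both elderly libraries, the megakaryocyte and eosinophil sums overlap between the ages, and the stromal sums lie far above all others.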

How the data were processed

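RNA of 2 mature and 2 elderly libraries was analysed, with groups taken from the sample titles. The methods of the study describe poly(A) selection, with named exceptions processed as total RNA instead. Among these exceptions is a sample named by an age in weeks close to that of the mature mice. The sample titles do not say which preparation each library had. If it differed between the ages, it could not be told apart from age. The authors removed adapters with cutadapt, mapped reads with HISAT2 to mm9 and counted them with featureCounts. The values they deposited are raw counts per Ensembl transcript, without normalization. Versions and the strand setting of the counting were not given in the sources used here. The 25621 transcripts whose exons are wholly shared with others held 0 counts, so reads on shared bases, on either strand, were not counted. Counts were summed per gene with GENCODE M1, which lacked 388 of the 95883 transcripts (at most 0.0888% of counts).

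Genes with a summed count over 2 were kept (22214), normalized by TMM and compared with edgeR 4.0.16's quasi-likelihood test (trended dispersion, two-sided, Benjamini-Hochberg over all genes tested, prior count 0.125, R 4.3.3). The common dispersion was 0.0703. The SE was the log2 fold change over the square root of F. The study used transcripts and an exact test at a dispersion of 0.2, which was run as an alternative beside DESeq2 1.42.0, other scalings, filters and features, a replicate term, and each library left out. DESeq2 with a library left out was added after seeing the data. The test was also run on counts simulated from its own dispersion, which cannot check the spread between animals. All members are named, and of the other lists those past the test and the most abundant genes. Promoters are shown for the members with the largest called changes that are in the RefSeq table. Sptb is named Spnb1 in the annotation. The members and lists were chosen with earlier results of these data known. Libraries held 10472117 to 15650518 counts. A gene of the other erythroid lists is not reported here.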

Additional observations from a re-analysis of the deposited data

How the results depend on the processing

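The count of 12 members higher in elderly libraries became 3 with the exact test at a dispersion of 0.2, 7 when an absolute log2 fold change over 2 was also required, and 21 with the replicate block. It was 15 with DESeq2, library size alone and TMM without immunoglobulin, hemoglobin and histone genes, 16 with RLE factors and the robust fit, 14 with filterByExpr, 18 without a filter, and 17 with protein-coding genes only and with transcripts. With 1 library left out it ranged from 0 to 14 in edgeR, where the lone library of an age is assumed to vary like the others, and from 7 to 12 in DESeq2, an alternative chosen after seeing the data. The count of members lower in elderly libraries was 0 under each of these alternatives. The median log2 fold change of 1.33 was 1.63 with transcripts and ranged from 1.25 to 1.56 in edgeR and from 1.27 to 1.57 in DESeq2 with 1 library left out. The causes of these shifts were not tested. Same-numbered libraries deviated together with a correlation of 0.0519 over 7047 genes, so the numbers were not taken as pairs, and with the block as a term all genes called higher went from 430 to 962.

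The log2 fold change of Uros, -0.015, changed sign with library size alone (0.046), TMM without immunoglobulin, hemoglobin and histone genes (0.0016), no filter (0.000595), transcripts (0.38), the replicate block (0.026), without mature library 1 (0.40, with 0.41 in DESeq2) and without elderly library 1 (0.028, with 0.033 in DESeq2), and its lowest value was -0.36 without mature library 2. That of Ppox was 0.85 without elderly library 2 and became -0.38 without elderly library 1 in edgeR and -0.375 in DESeq2. With 2 libraries per age and few countable bases in several members, smaller changes could not be resolved.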
